A study of Neurospora crassa with 24 samples.

Results

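The carotenoid path of *N. crassa* is represented here by 5 genes out of the 9730 in the deposited tables. They were taken by gene ID, namely *al-3* (NCU01427), *al-2* (NCU00585), *al-1* (NCU00552), *cao-2* (NCU11424) and *ylo-1* (NCU04013), and no measured value entered the choice rule, although earlier results of these data were known when the list was drawn up. All 5 genes were found in both strains and passed the filter on low values, a mean of at least 2 CPM over the libraries. CPM are the deposited estimated counts put on a common total per library by edgeR, with TMM scaling over the 24 libraries.

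The orange pigments of *Neurospora* are made from isoprenoid precursors. AL-3 makes geranylgeranyl pyrophosphate, AL-2 joins its molecules into phytoene and later forms the ring, AL-1 introduces the double bonds, CAO-2 cleaves torulene, and YLO-1 oxidises the resulting aldehyde to the acid neurosporaxanthin. In mycelia the path is switched on by blue light through the white collar complex, a photoreceptor and transcription factor that also sits at the core of the circadian clock, and carotenoids also accumulate in conidia, the asexual spores.

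RNA was measured in 12 libraries of WT (FGSC 2489, wild type) and 12 of ΔMSN1 (FGSC 11345, a knockout of *msn-1*, NCU02671), with 1 culture per strain and time at 0 to 22 h after lights off in steps of 2 h. Liquid cultures in Vogel's medium with 2% glucose, arginine and biotin germinated for 6 h in light and then passed 2 days of cycles with 11 h light and 11 h dark phases. The 0 h cultures thus came from the end of a light phase and all others from darkness. Strains had no repeat culture at any time, so the error of a comparison is the spread between strains or between times, and a sequencing lane is named only for ΔMSN1, so strain and lane cannot be told apart.

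Libraries summed to 2732470 to 8094126 estimated counts in WT and 2415479 to 9829687 in ΔMSN1, and TMM factors ran from 0.840 (ΔMSN1, 16 h) to 1.26 (ΔMSN1, 8 h). The deleted gene *msn-1* was at 0 in 11 of the 12 ΔMSN1 libraries and in 0 of the 12 WT libraries. For the members, estimated counts per library ran from 6.00 (*al-1*, ΔMSN1 at 16 h) to 3063 (*al-2*), so the dark values of *al-1* in ΔMSN1 rest on the fewest counts.

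The first question was how the genes stood at lights off relative to darkness. Transcripts of the phytoene synthase and cyclase gene *al-2*, the desaturase gene *al-1* and the oxygenase gene *cao-2* were higher at 0 h than in the dark cultures of both strains, by 3.52-fold, 9.11-fold and 2.00-fold. The first gene of the path, *al-3*, and the last, *ylo-1*, stood at 1.12-fold and 1.10-fold and did not pass the test. As bulk RNA was measured, fewer cells of a type and less RNA per cell cannot be told apart.

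For *al-3*, the geranylgeranyl pyrophosphate synthase gene, WT had 20.2 CPM at 0 h, and its 11 dark libraries had a lowest value of 14.3 CPM, a median of 17.5 CPM and a highest value of 22.6 CPM (22 h). In ΔMSN1 the gene had 16.0 CPM at 0 h, against 9.86 CPM (16 h), 15.2 CPM and 18.6 CPM (4 h) in the dark libraries. In both strains the 0 h library lay inside the range of the dark ones. The gene model of *al-3* overlaps that of NCU01426 in the reference, so its values are uncertain to the extent that reads were shared. The log2 fold of 0 h over the mean of 2 to 22 h was 0.17 ± 0.14 (SE), with an adjusted p of 1 and a 95% interval of the fold of 0.918 to 1.37 (edgeR quasi-likelihood test over 7305 genes, Benjamini-Hochberg adjustment).

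Transcripts of *al-2* stood at 431 CPM at 0 h in WT, above dark libraries with a lowest value of 104 CPM (22 h), a median of 137 CPM and a highest value of 159 CPM (10 h). The ΔMSN1 culture had 428 CPM at 0 h, against 75.5 CPM (22 h), 114 CPM and 149 CPM (2 h). The 0 h library was above every dark library in both strains, and by 2 h the level had dropped 2.92-fold in WT and 2.87-fold in ΔMSN1. The log2 fold was 1.82 ± 0.12 (SE) with an adjusted p of 3.59e-08 and a 95% interval of the fold of 2.97 to 4.17, the 19th highest fold of the genes tested.

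The largest difference among the members was that of *al-1*, the phytoene desaturase gene. In WT it had 60.6 CPM at 0 h, and its dark libraries lay at 5.41 CPM (18 h) to 12.5 CPM (10 h) with a median of 7.61 CPM. In ΔMSN1 the values were 44.0 CPM at 0 h and 2.34 CPM (10 h) to 7.48 CPM (8 h) with a median of 3.46 CPM in darkness. Light and dark libraries did not overlap in either strain, and the 0 h level was 6.39 times that at 2 h in WT and 12.7 times in ΔMSN1. The log2 fold was 3.19 ± 0.20 (SE), with an adjusted p of 3.59e-08 and a 95% interval of the fold of 6.76 to 12.3. This placed *al-1* at rank 5 by fold among all genes tested, after *cry*, *bli-4*, *vvd* and NCU07434. Of these, *cry* passed the filter on low values only through its 0 h libraries.

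A smaller difference was seen for *cao-2*, the torulene oxygenase gene. WT had 30.2 CPM at 0 h and 11.4 CPM (4 h) to 19.2 CPM (16 h) in darkness, with a median of 16.4 CPM. ΔMSN1 had 31.8 CPM at 0 h and 10.6 CPM (2 h) to 17.8 CPM (12 h) in darkness, with a median of 15.3 CPM. The 0 h libraries lay above all dark ones in both strains, and the lowest values followed directly after lights off, at 2 to 4 h. The log2 fold was 1.00 ± 0.11 (SE) with an adjusted p of 2.73e-05 and a 95% interval of the fold of 1.71 to 2.34.

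For *ylo-1*, the aldehyde dehydrogenase gene of the last step, WT had 150 CPM at 0 h and 127 CPM (10 h) to 172 CPM (18 h) in darkness, with a median of 157 CPM. ΔMSN1 had 160.5 CPM at 0 h and 109 CPM (22 h) to 157 CPM (16 h) in darkness, with a median of 130.3 CPM. The 0 h library lay inside the dark range in WT and above it in ΔMSN1. The log2 fold was 0.13 ± 0.13 (SE) with an adjusted p of 1 and a 95% interval of the fold of 0.911 to 1.32, and it turned to −0.06 when the 0 h library of ΔMSN1 was left out.

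**Figure D1:**
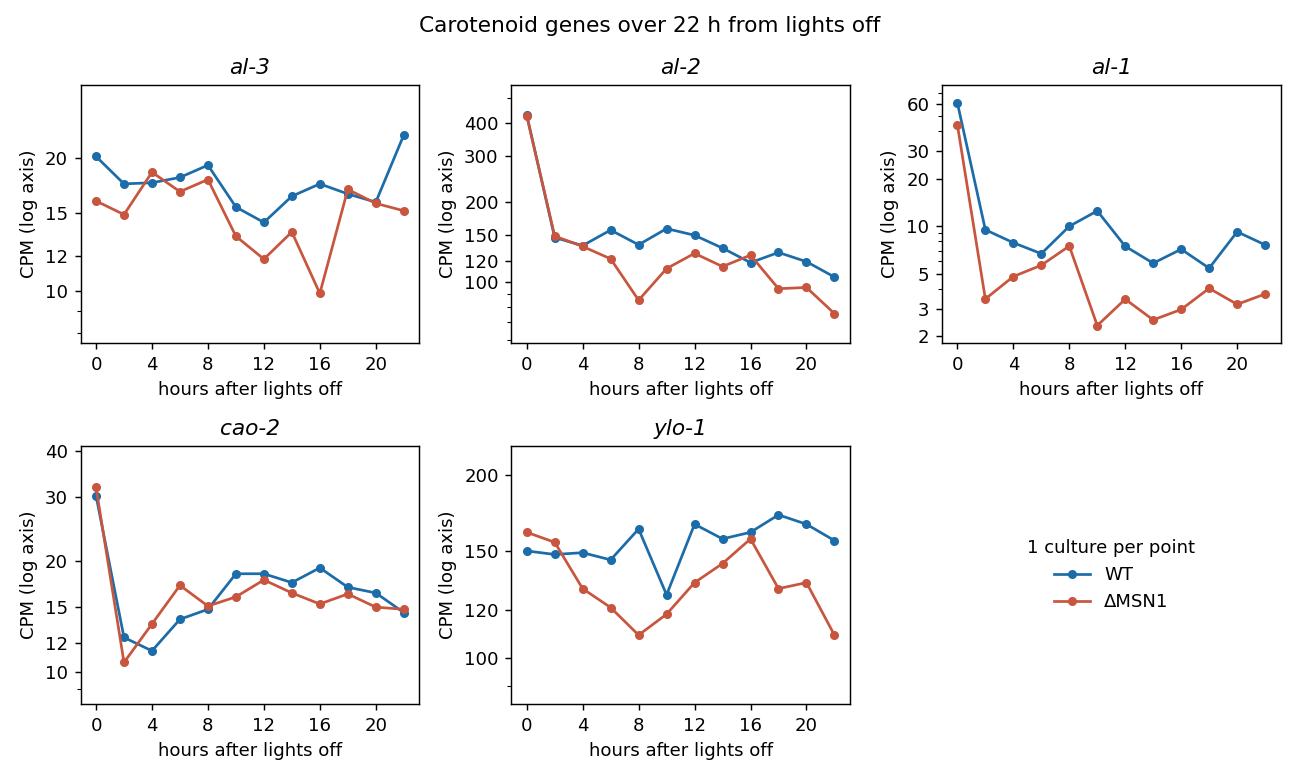
CPM of the 5 genes (log axis, a panel per gene in the order of the path) against hours after lights off in WT (blue) and ΔMSN1 (red), with 1 culture per point and no error bars. The 0 h point stands above all later points for *al-2*, *al-1* and *cao-2* in both strains, while the 0 h points of *al-3* lie inside its dark range, and *al-1* is lower in ΔMSN1 at 12 of 12 times.

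Counted over the path, 3 of the 5 genes were called higher at lights off and 0 were called lower (adjusted p below 0.05), where 0.671% of the genes tested were called higher and 0.0411% lower, and the median log2 fold over all genes was −0.02. The 3 calls held under every alternative run, with log2 folds of 2.90 to 3.50 for *al-1*, 1.66 to 1.96 for *al-2* and 0.92 to 1.06 for *cao-2*. The same 3 genes were above every dark library in both strains at 0 h, which 1.07% of the tested genes were. As a description with no test, log2 ratios between members were taken from log2(CPM + 1), which shrinks changes of genes low in CPM. On this scale *al-1* stood 2.88 higher relative to *ylo-1* at 0 h than in darkness and 1.20 higher relative to *al-2*. The ratio of *al-3* to *ylo-1* moved by 0.04.

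At 22 h the cultures were at the same phase of a 22 h cycle as at 0 h but had been kept in the dark. Whether these cultures also differed in age or harvest time is not given here and was not tested. The gene *al-1* was 9.50-fold higher at 0 h than at 22 h (log2 3.25 ± 0.38, SE, adjusted p = 0.000134), *al-2* was 4.81-fold higher (2.26 ± 0.20, adjusted p = 4.13e-06) and *cao-2* was 2.10-fold higher (1.07 ± 0.16, adjusted p = 0.00234, edgeR quasi-likelihood test). The log2 differences of *al-3* (−0.07, adjusted p = 0.880) and *ylo-1* (0.24, adjusted p = 0.523) did not pass. Thus 3 of 5 members were called higher and 0 lower, where 0.808% of genes were called higher and 0.205% lower. With no scaling between libraries the log2 difference of *cao-2* was 0.80 with an adjusted p of 0.0898. Both comparisons share the 0 h libraries.

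**Figure D2:**
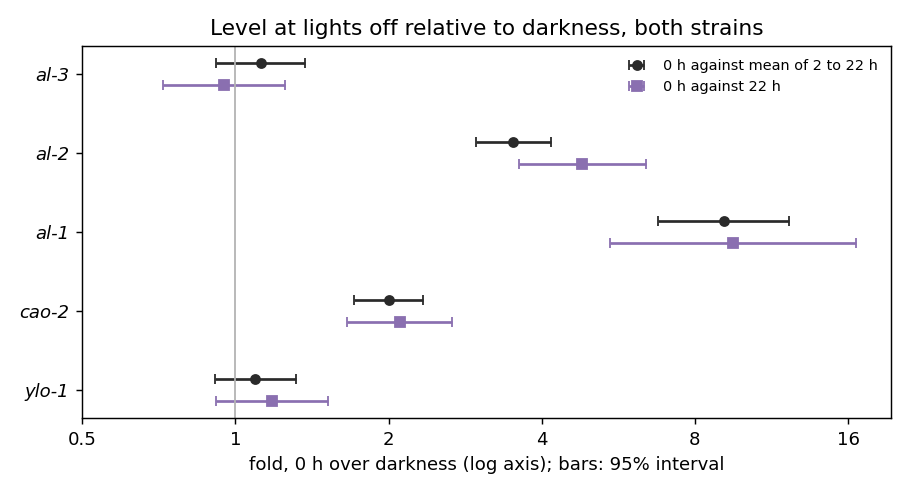
Fold of the level at 0 h over darkness (log axis) for each gene, both strains together, with circles for 0 h against the mean of 2 to 22 h, squares for 0 h against 22 h and bars for 95% intervals from the edgeR fit. The intervals of *al-1*, *al-2* and *cao-2* lie above 1 in both comparisons (9.11, 3.52 and 2.00 for the circles), and those of *al-3* and *ylo-1* include 1.

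The 2 strains were compared next, with time as a factor pairing the cultures. All 5 fitted differences were below 0, and *al-1* differed most, at 0.518-fold of WT in ΔMSN1 (log2 −0.95 ± 0.17, SE, adjusted p = 0.00113, lower at 12 of 12 times). The differences of *al-2* (0.827-fold, −0.27 ± 0.08, adjusted p = 0.0192) and *ylo-1* (0.852-fold, −0.23 ± 0.07, adjusted p = 0.0269) also passed, each lower at 10 of 12 times. For *al-3* the log2 difference was −0.22 ± 0.08 (adjusted p = 0.0525, lower at 10 of 12 times), and for *cao-2* it was −0.03 ± 0.11 (adjusted p = 0.888, 95% interval of the fold 0.830 to 1.16). In all, 3 of 5 genes were called lower and 0 higher in ΔMSN1, where 9.92% of the genes tested were called lower and 11.9% higher (edgeR quasi-likelihood test). With no scaling between libraries these shares were 3.79% lower and 32.5% higher. The share of all genes that were lower at every time is not given here, so the counts of times are a description.

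The strain ratio of *al-1* ran from a log2 of −2.41 at 10 h to −0.24 at 6 h, with a median of −1.08. At 10 h WT had its highest dark value and ΔMSN1 its lowest, and without that time the log2 difference was −0.78 (adjusted p = 0.000825). The single ratios of *al-2* ran from −0.70 to 0.10, of *al-3* from −0.83 to 0.08, of *ylo-1* from −0.57 to 0.10 and of *cao-2* from −0.33 to 0.31. The dark ranges of the strains overlapped for each of the 5 genes. The calls of *al-2* and *ylo-1* were lost with no scaling between libraries, where the median of all genes moved to 0.19 and the log2 differences were −0.10 and −0.06, against −0.77 for *al-1*. Without time as a block, *al-1* had an adjusted p of 0.191 and *al-2* of 0.579, so that only *ylo-1* was still called. The call of *ylo-1* was also lost when 6, 12, 18 or 22 h was left out, with adjusted p up to 0.0596.

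**Figure D3:**
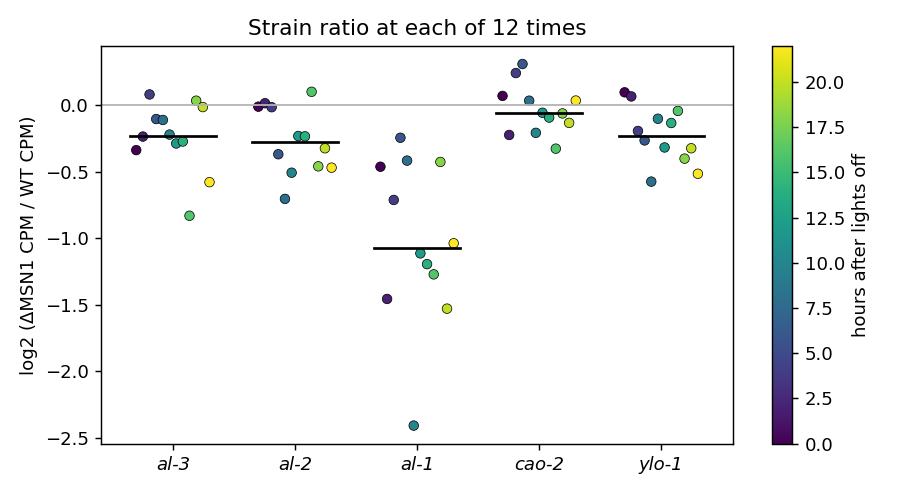
Log2 ratio of ΔMSN1 to WT CPM for each gene at each of the 12 times (points, coloured by hours after lights off and spread sideways by time), with a bar at the median. All 12 points of *al-1* lie below 0, from −2.41 to −0.24, while those of *cao-2* lie on both sides, from −0.33 to 0.31.

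Whether the response at lights off differed between strains was tested by the interaction of strain with the 0 h culture. The fold of *al-1* in ΔMSN1 was 1.47 times that in WT, with a 95% interval of 0.792 to 2.74 (adjusted p = 1), and those of *al-2*, *al-3*, *ylo-1* and *cao-2* were 1.21, 0.916, 1.28 and 1.08 times, each with an interval that includes 1. No member was called, and 0% of the 7305 genes tested were called higher or lower by edgeR at an adjusted p of 0.05, while 118 genes, none of them a member, had an unadjusted p below it. limma-voom also called 0 genes. The test rests on 1 culture per strain at 0 h.

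Rhythms of 22 h, 11 h and the third harmonic of 22 h were tested together at a false discovery rate of 0.1. In WT 0 of the 5 members were called by edgeR, where 0.318% of 7235 genes were, and the adjusted p ran from 0.462 (*al-1*) to 0.968 (*ylo-1*). In ΔMSN1 0 of 5 were called, where 0.041% of 7311 genes were, with an adjusted p of 0.651 (*al-1*) to 0.884 (*cao-2*), and limma-voom and DESeq2 called 0 members there. No member had an unadjusted p below 0.05 in either strain, and 919 genes in WT and 591 in ΔMSN1 did. With DESeq2, *al-1* was called in WT (adjusted p = 0.0570), in a fit that called 307 genes, or 4.24%. The 0 h library enters these fits as the same phase as 22 h. When single times were left out of the WT fit, the number of genes called ran from 0 to 457, the latter without 0 h (6.31%), and in the ΔMSN1 fit it ran from 0 to 81, with 0 members called in each case.

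Among the 22 dark libraries of both strains, fitted with 1 shared rhythm, only *cao-2* of the 5 members was called (adjusted p = 0.0839), where 7.45% of 7304 genes were. Its 22 h component peaked at 13.7 h with a peak-to-trough fold of 1.41. In WT its level went from 11.4 CPM at 4 h to 18.5 CPM at 10 and 12 h and 19.2 CPM at 16 h, then to 14.5 CPM at 22 h. In ΔMSN1 it went from 10.6 CPM at 2 h and 13.5 CPM at 4 h to 17.2 CPM at 6 h. After that it lay between 14.8 CPM (22 h) and 17.8 CPM (12 h). Low values at 2 to 4 h were thus seen in both strains, and the highest dark value came at 16 h in WT and at 12 h in ΔMSN1. A rhythm that differs between strains was not called for *cao-2* (adjusted p = 0.999, edgeR quasi-likelihood test). The call was lost without the 2 h libraries (adjusted p = 0.322) or the 4 h libraries (0.303) of both strains, without any of 10, 12, 14, 16, 18 or 22 h, with DESeq2 (0.187) and with no scaling (0.295).

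The other members had adjusted p of 0.220 (*al-2*), 0.320 (*al-3*), 0.386 (*al-1*) and 0.575 (*ylo-1*) in the dark fit. Late in darkness *al-2* had its lowest values, 104 CPM in WT and 75.5 CPM in ΔMSN1, both at 22 h. In the test of a rhythm that differs between strains, 0 of 5 members were called and 0.0137% of 7305 genes were (1 gene), with adjusted p of the members from 0.927 to 1.00, and none with an unadjusted p below 0.05 where 320 genes had one. limma-voom called 0 members in this test.

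The levels of the members in darkness differed widely. In CPM of the values as deposited, which appear to be scaled down more in longer genes, *ylo-1* was highest (median of the 22 dark libraries 146.5 CPM), followed by *al-2* (127 CPM), *al-3* (16.5 CPM), *cao-2* (15.7 CPM) and *al-1* (5.74 CPM). *ylo-1* was above *al-2* in 18 of 22 libraries, and *al-3* above *cao-2* in 11 of 22, so the latter neighbours did not differ beyond their spread on this scale. *al-2* was above *al-3*, and *cao-2* above *al-1*, in 22 of 22. In CPM times gene length in kb the order was the same, but *ylo-1* was above *al-2* in 14 of 22 libraries and *al-3* above *cao-2* in 16 of 22. At 0 h *al-2* was the highest of the 5 and *al-1* was above both *al-3* and *cao-2* in both strains. The spread over the dark libraries was largest for *al-1* (coefficient of variation 25.2% in WT and 38.1% in ΔMSN1) and smallest for *ylo-1* (8.17% and 12.3%). Dark values of *al-1* rest on as few as 6.00 estimated counts and those of *ylo-1* on at least 318 (both ΔMSN1, 16 h). How much of the spread was counting error was not tested.

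Correlations between the members rested on few libraries. The 0 h libraries of *al-1*, *al-2* and *cao-2* stood apart from the rest, so pooled values of these genes with each other are not given, and each pooled value below has its dark value beside it. Over the 11 dark libraries *al-1* and *al-2* had r = 0.278 in WT and −0.23 in ΔMSN1 (log2(CPM + 1)). Over the 12 libraries of a strain, of 20 pairs (10 in each strain), 1 passed by Pearson's r, namely *al-2* with *ylo-1* in ΔMSN1 (r = 0.701, permutation p = 0.00211, adjusted p = 0.0422; Spearman's rho = 0.783, permutation p = 0.00337, adjusted p = 0.0397). It was 0.614 without the 2 farthest libraries and 0.715 over the 11 dark ones, where its adjusted permutation p was 0.232. In WT the same pair had r = −0.53 over the dark libraries (adjusted permutation p = 0.321). *al-1* and *al-3* in ΔMSN1 passed by rank alone (rho = 0.783, permutation p = 0.00397, adjusted p = 0.0397; r = 0.371, permutation p = 0.209, adjusted p = 0.465), with r = 0.640 without the 2 farthest libraries and 0.671 over the dark ones (adjusted permutation p = 0.232). Over the 11 dark libraries 0 of the 20 pairs passed by Pearson's r, and 2 had an unadjusted permutation p below 0.05.

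Over 24 libraries centred within each strain, the mean profile of the members had r = 0.908 with *al-1*, 0.889 with *al-2* and 0.779 with *cao-2*. With *al-3* and *ylo-1* it had only 0.337 and 0.394. The other genes most like this mean were *cry* (a cryptochrome, r = 0.934), NCU02771, NCU07434 and NCU10063 (each 0.881) and *bli-4* (a blue-light-induced gene, 0.876). Over the 22 dark libraries the correlations of these 5 genes with the mean were 0.161, 0.06, 0.113, −0.23 and 0.127, so this likeness too rests on the 0 h cultures. Those cultures alone also brought *cry* past the filter on low values, so its place here is a description. By member, the nearest genes were *cry* for *al-1* (r = 0.945), *ecd-2* for *al-2* (0.933) and *mig-3* for *cao-2* (0.888), which fell to 0.477, 0.782 and 0.663 in darkness. For *al-3* the nearest was NCU02057 (0.867) and for *ylo-1* it was *csr-1* (0.853), with 0.873 and 0.880 in darkness.

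Other genes of the light response gave a scale for these changes. Of a list of 13 such genes, 6 were called higher at lights off (*cry* among them), 1 was called lower and 6 did not pass. Over all genes tested, 0.671% were called higher and 0.0411% lower. The median log2 fold of the list was 0.81. The cryptochrome gene *cry* passed the filter on low values only through its 0 h libraries, so its call carries no weight here. As a description, it stood at 92.1 CPM at 0 h against a dark median of 1.62 CPM in WT. In ΔMSN1 it stood at 85.9 CPM against 1.46 CPM. Next came *bli-4* (log2 4.40 ± 0.14, SE) and *vvd*, whose product is a blue light photoreceptor that dampens the light response (4.34 ± 0.10). The clock gene *frq* (1.44), *bli-3* (1.10) and the photolyase gene *phr* (0.91) were also higher at 0 h than in darkness. Their differences lay between those of *al-2* and *cao-2* or just below *cao-2*. The clock-controlled gene *ccg-1* was lower at 0 h than in darkness, by 0.71 (adjusted p = 0.0427, edgeR). The fold of *al-1* thus lay below the 3 highest of the list and above the rest. Against 22 h, *frq* (1.67) and *bli-3* (1.46) were still called, while *phr* (0.76, adjusted p = 0.0760) and *ccg-1* (−0.34, adjusted p = 0.418, edgeR) were not. In WT the 0 h values of *frq* and *ccg-1* lay inside their dark ranges, and in ΔMSN1 outside. Of the 12 list genes tested for a rhythm in darkness, 7 were called, where 7.45% of all genes were. Among the 7 were *vvd* (adjusted p = 5.75e-06), *frq* (2.87e-05), *ccg-1* (8.26e-05) and *bli-4* (0.0163, edgeR). The dark series ends at 22 h after lights off, and a decline after light was not tested apart from a rhythm. Between strains 3 of the 13 were called, where 21.8% of all genes tested were called in either direction, a share near that of the list. Of these, *wc-2* (a component of the white collar complex) was higher in ΔMSN1 by 0.28 and *phr* (−0.27) and *ccg-1* (−0.53) were lower, while *wc-1* (0.09, adjusted p = 0.571) and *vvd* (0.08, adjusted p = 0.550) did not pass.

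**Figure D4:**
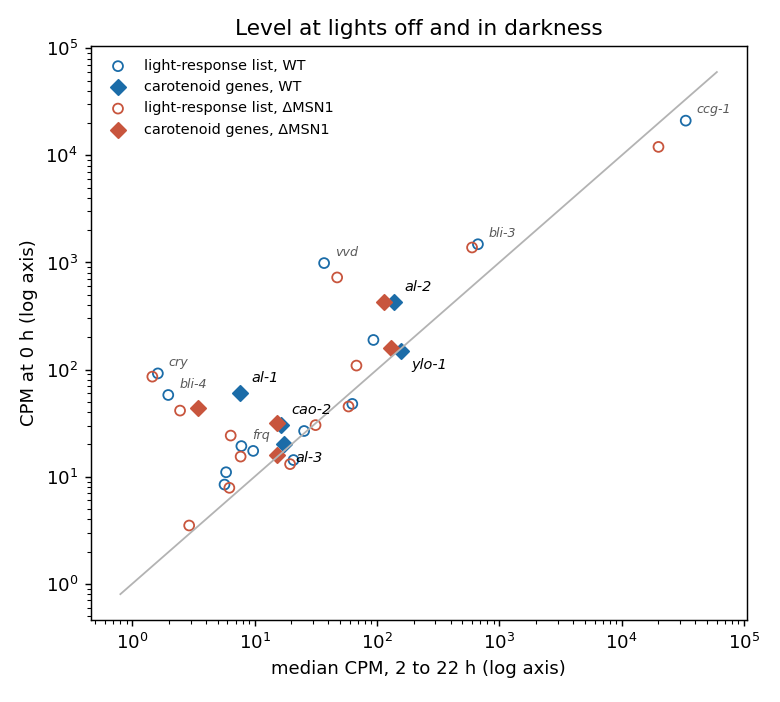
CPM at 0 h against the median CPM of the 11 dark libraries (both axes log) for the 5 carotenoid genes (filled diamonds) and the 13 genes of the light-response list (open circles) in WT (blue) and ΔMSN1 (red), with a line of equal levels. *al-1* and *al-2* lie above the line, *al-3* and *ylo-1* next to it, and *cry*, *bli-4* and *vvd* lie farthest above it.

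Genes that share substrates, or the spores in which carotenoids gather, were looked at in the same fits. Of 10 conidiation genes 8 were tested, and only *con-8* was called at lights off (log2 1.79, adjusted p = 9.56e-05), where 0.671% of all genes were called higher, with a median of 0.45 over the list. At 0 h against 22 h, *con-8* (2.41, adjusted p = 0.00234) and the hydrophobin gene *eas* (2.76, adjusted p = 0.0400) were called higher (edgeR), where 0.808% of all genes were. Between strains 2 of the 8 were called, again near the 21.8% of all genes, *acon-2* higher in ΔMSN1 (0.51) and *eas* lower (−0.88). The conidiation gene *con-13* was at 0 to 0.249 CPM over the 24 libraries and was not tested. In isoprenoid supply only *erg-13* (hydroxymethylglutaryl-CoA synthase) and *fpp* (farnesyl pyrophosphate synthase) could be matched by name. Neither was called at lights off (0.05 and 0.17, adjusted p = 1), and *erg-13* was lower in ΔMSN1 (−0.66 ± 0.14, adjusted p = 0.00302). Of the genes of retinal and related cleavage, neither *cao-1* (which cleaves resveratrol) nor *nop-1* (an opsin, which binds retinal) was called at lights off (0.04 and 0.06, adjusted p = 1). Between strains *cao-1* was higher in ΔMSN1 (0.74, adjusted p = 0.000392) and *nop-1* lower (−1.32, adjusted p = 1.76e-05, edgeR).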

How the data were processed

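The authors deposited estimated counts per gene for each strain, which the submitters' processing notes tie to kallisto 0.43.1; the genome build and annotation are not given in the sources used here. Poly(A) libraries came from 1 culture per strain and time, and all columns were matched to samples by their labels (0 left unmatched). Few values are whole, and the smallest nonzero value of a gene was lower in longer genes (706 genes, r = −0.766, ln scales, across genes), so the values appear rescaled by length and CPM may not stand for reads. How they were scaled is not known.

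Values were rounded to whole numbers and fitted with edgeR 4.0.16 (quasi-likelihood F test, TMM) in R 4.3.3 over all genes whose mean reached 2 CPM, with Benjamini-Hochberg adjustment over them. A call is an adjusted p below 0.05, or a false discovery rate of 0.1 for rhythms. Strain and lights-off fits had time as a 12-level factor. Correlations used permutation tests with 100000 resamples (Python 3.11.15, scipy 1.17.1). Each test was also run on simulated data, where a required recovery was set for the strain test alone. What size of change the rhythm and interaction tests could detect is not given here.

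The members and gene lists were chosen with earlier results of these data known. Named genes are the 5 members, the 5 genes most like their mean profile, the nearest gene to each member, and the called genes of the lists; others were named after their values were seen. Names and gene order come from the RefSeq table of the NC12 assembly. Where that gives only the ID, a name was taken from the study's supplementary gene list if it had one. Alternatives were other scalings, tools (limma-voom 3.58.1, DESeq2 1.42.0), filters and thresholds, values times gene length, no block for time, and leaving out times; a fit with no scaling factor, and all alternatives for the strain-by-light and strain-by-rhythm tests (RLE size factors, limma-voom, values times gene length), were added after the data were seen.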

Additional observations from a re-analysis of the deposited data

How the results depend on the processing

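Of 185 alternative counts of called members, 170 stayed within 1.5 times the reported count. These include counts reported as 0, such as members called higher in ΔMSN1, and moves from 3 to 2 or 4 fall within that limit. Members lower in ΔMSN1 went from 3 to 1 with no scaling factor and to 1 with no replicate block for time, and ran from 2 to 4 when single times were left out. In the fit with no scaling factor *cao-2* turned to 0.15 on the log2 scale (strain effect) and *ylo-1* to −0.036 (0 h against 22 h, where the median of all genes was −0.30), and at lights off *ylo-1* ran from −0.058 without the 0 h library of ΔMSN1 to 0.309 without that of WT. Members called rhythmic in WT went from 0 to 1 with DESeq2. In darkness the count went from 1 to 0 with no scaling factor, with DESeq2 and at a false discovery rate of 0.05, and was 0 to 1 when single times were left out. Correlated pairs went from 1 to 0 without the 0 h libraries. The call of *al-3* as lower in ΔMSN1 was gained with RLE size factors (adjusted p = 0.0328, edgeR), with values times gene length (0.0423) and without 4, 8 or 20 h. The causes were not tested. With as few as 6.00 estimated counts, *al-1* is measured least precisely in dark ΔMSN1 libraries, and the design has 1 culture per strain and time.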

Other observations

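The neighbours of the members in the gene order of the reference were looked at after their values were seen. Next to *al-2* lies NCU00584, which was higher at 0 h than in darkness by 1.27 ± 0.14 on the log2 scale (SE, edgeR, adjusted p = 3.62e-05). It stood at 63.4 CPM at 0 h in WT, against at most 33.4 CPM in darkness, and at 77.8 CPM in ΔMSN1, against at most 35.7 CPM. Its single 0 h library thus lay above every dark one in each strain, as it did for 1.07% of the tested genes. Only 2 genes separate *al-2* from *cry*, and 38 lie between *al-2* and *al-1*. Of the 32 tested among these 38, 2 were called higher at lights off and 0 lower. Over all genes tested, 0.671% were called higher and 0.0411% lower. The 2 were *cry*, which passed the filter on low values only through its 0 h libraries, and NCU00584, named after its values were seen. The count is thus a description of this stretch and not a test of it.

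None of the other 8 neighbours tested was called at lights off. Between strains, NCU09306, next to *cao-2*, was lower in ΔMSN1 (−1.43, adjusted p = 7.41e-06, edgeR), while *cao-2* itself stood at −0.03 (adjusted p = 0.888). The neighbour *ncw-6* of *al-2* was lower (−0.50, adjusted p = 0.00729) and NCU06636, next to *al-3*, was higher (0.40, adjusted p = 0.0106). The gene model of *al-3* overlaps that of NCU01426, so reads of this pair may not be told apart, and NCU01426 had log2 differences of 0.04 at lights off and −0.06 between strains, neither called.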
